A study of Mus musculus with 6 samples.

Results

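The machinery that copies DNA was followed through 35 genes, chosen by name from the 54532 genes of the deposited table. They load and start the replicative helicase, prime and extend the new strands, clamp the polymerases, coat single-stranded DNA, join Okazaki fragments and supply deoxynucleotides. All 35 were found in the table, and all 35 passed the filter on low values (0.5 FPKM or more on average across the 6 libraries), as did 15874 genes in all. RNA was sequenced from mouse T cells after co-culture with ID8, a mouse ovarian cancer cell line. In the cisplatin group (3 libraries) the labels give 40 µM cisplatin as the treatment, which the paper describes as given to the ID8 cells before co-culture, and in the control group (3 libraries) they give PBS. In both groups the T cells came from spleens of C57BL/6 mice aged 6 to 8 weeks, were separated with a pan T-cell kit, were kept in 10 ng/mL IL-2 and had been activated for 72 h with beads against CD3 and CD28 before they met the ID8 cells. The methods speak of biological replicates, but no source used here says whether the libraries of a group came from separate mice or cultures, so p-values measure the spread between these libraries, which may be technical. Levels are in FPKM, fragments scaled to gene length and to a total for each library, which differed from its reads on genes. For the 35 genes this length counts all annotated exon bases, also those that the transcripts present may lack. Levels compared between genes are therefore approximate. Each library held between 30606569 and 32169496 reads on genes, as rebuilt from the FPKM and the gene lengths.

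DNA replication starts when the origin recognition complex, with Cdc6 and Cdt1, loads the ring of MCM proteins onto DNA. In S phase Cdc45 and the GINS complex join the MCM ring and turn it into the active helicase, primase and the polymerases copy the opened strands, and PCNA, set on DNA by the RFC clamp loader, holds the polymerases in place. T cells activated through CD3 and CD28 leave quiescence and divide, and many replication genes are targets of the E2F transcription factors that act at the entry into S phase.

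By FPKM, 20 of the 35 genes rose in the cisplatin libraries, 3 fell and 12 did not pass the test (limma, adjusted p under 0.05), whereas after centring each library on its T-cell identity genes 1 gene was higher and 21 were lower. Among all 15874 tested genes, 27.5% rose and 29.0% fell by FPKM, and 4.71% were higher and 66.2% lower after the centring. The median log2 fold change was 0.26 over the 35 genes and 0.03 over all tested genes by FPKM, and -0.32 and -0.55 with the centring. The direction of the group is therefore a direction relative to a chosen reference: 27 of the 35 genes lay above the median of all tested genes, and 32 of 35 lay below the mean of the T-cell identity genes. Of all 15874 tested genes, only 2290 lay above that mean, beside 3 of the 35. Lying below it was thus common to most tested genes and is not particular to the replication genes. The same holds for the counts below 0 given by role in the paragraphs that follow. Among protein-coding genes alone, 21 of the 35 rose and 3 fell, beside 31.8% and 37.2% of the 12057 such genes tested. All 3 cisplatin libraries were above all 3 control libraries for 22 of the 35 genes, beside 31.9% of tested genes, and below them for 3, beside 32.3%. Most changes were small. At a change of at least 2-fold, 1 of the 35 genes rose (Rrm2, by FPKM), beside 4.11% of tested genes, and 0 fell, beside 12.8%. The count of 0 was the same with limma's voom on rebuilt reads, and the largest fitted fall among the 35 was -0.32 (Rrm1), so 3 falls passed the test without reaching that size.

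**Figure D1:**
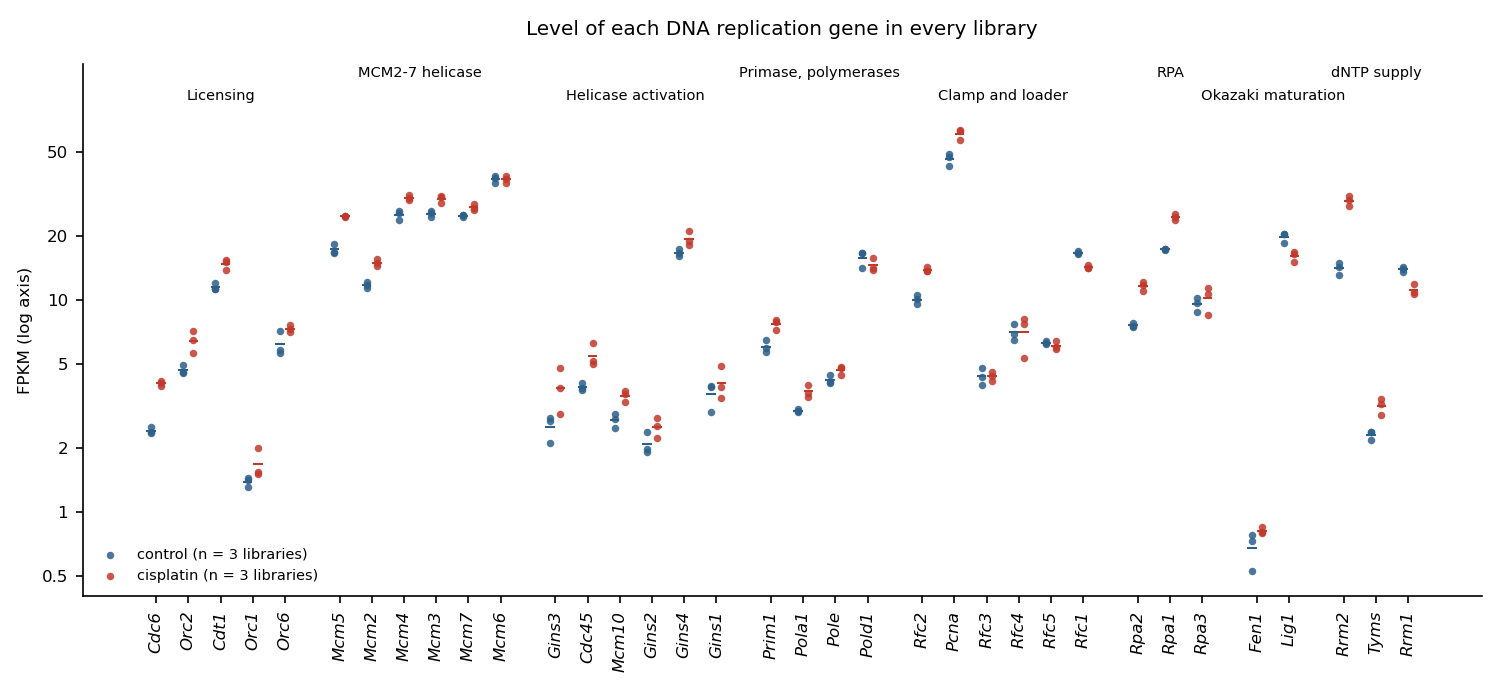
Level of each of the 35 replication genes in FPKM (log axis), by role, with a point for each library and a line at the mean of the 3 control (blue) or 3 cisplatin (red) libraries. Pcna was the highest at 43.0 to 63.1 FPKM and Fen1 the lowest at 0.523 to 0.847 FPKM, and the groups of Rrm2 stand farthest apart.

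The libraries were not T cells alone, and their makeup by marker genes differed between the groups. All 24 T-cell identity genes, such as the CD3 chains, were higher in the cisplatin libraries (median log2 fold change 0.60), with a summed level of 3139 to 3212 FPKM against 1987 to 2116 FPKM in the control libraries. Of 20 markers of ID8 tumour cells, 14 were tested and 13 of them were lower in the cisplatin libraries (median -2.50), with a summed level of 243.5 to 250.3 FPKM against 1638 to 1718 FPKM. B-cell markers were higher for 9 of 10 genes (median 0.60, the same as for the T-cell list), with a summed level of 3637 to 3710 against 1699 to 1786 FPKM. Most of this B-cell sum came from an immunoglobulin gene, at a mean of 3220 against 1433 FPKM. Myeloid markers were higher for 8 and lower for 1 of the 10 tested of 12 (median 1.24, 131 to 149 against 67.4 to 72.2 FPKM). None of these markers was at 0 in all 6 libraries. ID8 cells divide and carry replication transcripts of their own, so a part of each FPKM value can come from them, and its part in the changes described here was not tested. In RNA from a mixture, fewer cells of a type and less RNA per cell cannot be told apart.

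Among the genes that license origins, 3 of 5 rose by FPKM and the other two did not pass the test, while relative to the T-cell identity genes Cdc6 alone of the 5 lay above 0. Cdc6 (chr11:98907801-98923940, plus strand, GRCm38), the loader that joins the origin recognition complex to bring in the MCM ring, was at 4.04, 3.92 and 4.16 FPKM in the cisplatin libraries and 2.51, 2.34 and 2.37 FPKM in the control libraries. The groups were well apart and the libraries within each lay close together (log2 fold change 0.72 ± 0.07 (SE), adjusted p = 0.00019). Its partner Cdt1, which carries the MCM ring to the origin, was at 15.3, 15.1 and 13.8 FPKM with cisplatin and 11.3, 11.98 and 11.3 FPKM in control. Again every cisplatin library was above every control library (log2 fold change 0.36 ± 0.05 (SE), adjusted p = 0.0014). Orc2, a subunit of the origin recognition complex, was at 5.64, 6.48 and 7.104 against 4.55, 4.91 and 4.503 FPKM (log2 fold change 0.45 ± 0.09 (SE), adjusted p = 0.0062), and 29.8% of its exon bases are shared with Nif3l1 on the other strand. Orc1, the largest subunit, was low, at 1.54, 1.51 and 2.004 against 1.45, 1.41 and 1.31 FPKM. Its groups did not overlap, yet cisplatin replicate 3 stood above the others and the change did not pass the test (95% interval of the log2 fold change -0.11 to 0.61). Orc6 reached 7.28, 7.59 and 7.06 against 5.79, 7.13 and 5.62 FPKM, with control replicate 2 inside the cisplatin range (0.25, adjusted p = 0.069), and it passed the test without that library (0.35, adjusted p = 0.0054).

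The 6 subunits of the MCM helicase form one ring with a single copy of each, and the fitted log2 fold changes of their transcripts ran from -0.01 to 0.51 by FPKM. By FPKM 5 of the 6 rose, by 0.14 to 0.51 on the log2 scale, and after the centring on T-cell identity genes all 6 lay below 0. Mcm5 (chr8:75109569-75128439, plus strand) changed the most by FPKM, from 18.3, 16.7 and 16.8 FPKM in the control libraries to 24.7, 24.6 and 24.8 FPKM in the cisplatin libraries. The cisplatin values differed among themselves by less than the control values did, and the groups were clearly separate (log2 fold change 0.51 ± 0.04 (SE), adjusted p = 9.2e-05). Mcm2 had the lowest FPKM of the 6 in every library, at 14.4, 15.5 and 14.8 against 11.8, 11.3 and 12.1 FPKM (0.34, adjusted p = 0.00075). Its gene length, 6956 bases, was the largest of the 6, and in control it held more reads than Mcm5 (mean 2469 against 2088). Mcm4 was at 31.3, 29.6 and 30.1 against 25.8, 23.9 and 26.1 FPKM (0.26, adjusted p = 0.0027), and Mcm3 at 30.5, 30.7 and 28.6 against 24.5, 25.8 and 26.3 FPKM (0.23, adjusted p = 0.0044). Both had groups that did not overlap. Mcm7 showed the smallest rise, 26.5, 28.4 and 27.2 against 25.1, 25.1 and 24.5 FPKM (0.14, adjusted p = 0.018), lost its call without cisplatin replicate 2 (adjusted p = 0.053) or control replicate 3 (0.056), and shares 12.6% of its exon bases with other genes. Mcm6 (chr1:128331590-128359664, minus strand) was the highest of the 6 in every library, at 37.3, 35.4 and 38.3 against 35.5, 38.4 and 37.5 FPKM. Its groups overlapped, and the 95% interval of its log2 fold change by FPKM, -0.11 to 0.10 (limma), covers 0.

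By FPKM the ring subunits were thus nearer to each other in level with cisplatin. Within a library the highest MCM subunit was 2.28 to 2.58 times the lowest in the cisplatin libraries and 3.02 to 3.38 times in the control libraries. This ratio is left as it is by any scaling that multiplies a library by one factor, but it depends on the gene lengths. It can also change with the mix of cells, whose part was not tested. Mcm5 relative to Mcm6 was 0.669 ± 0.024 (SD, n = 3) with cisplatin and 0.467 ± 0.043 in control. This pair and the other pairs set as ratios here were chosen after their values were seen, and their ratios are given without a test.

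Promoters are shown for Mcm5 and Mcm6, which had the largest and the smallest change of the ring subunits by FPKM, for Cdc6, with the largest change by FPKM of the licensing genes, and for Rrm2, with the largest by FPKM of the 35. After the centring on T-cell identity genes the order in the ring turns, with Mcm5 at -0.06 and Mcm6 at -0.58. The sequences are those of RefSeq on GRCm38.p6, from 250 bases before to 50 bases after the annotated start site, written along the strand of the gene. The RefSeq start sites are not always the gene starts of the table, so that the Cdc6 window lies within the gene as the table bounds it. Capitals mark matches to an E2F-type motif, searched as TTTCCCGC, TTTCGCGC, TTTGCCGC and TTTGGCGC on both strands, where matches may overlap and are then capitalised as one run. The Mcm5 promoter lies at chr8:75109259-75109558, plus strand, that of Mcm6 at chr1:128359656-128359955, minus strand, that of Cdc6 at chr11:98907901-98908200, plus strand and that of Rrm2 at chr12:24708004-24708303, plus strand.
Mcm5: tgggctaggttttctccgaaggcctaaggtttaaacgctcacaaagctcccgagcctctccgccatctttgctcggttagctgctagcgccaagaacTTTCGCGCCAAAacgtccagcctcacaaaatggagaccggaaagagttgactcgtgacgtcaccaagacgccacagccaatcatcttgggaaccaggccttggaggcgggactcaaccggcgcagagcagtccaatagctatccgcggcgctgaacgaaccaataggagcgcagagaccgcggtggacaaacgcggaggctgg
Mcm6: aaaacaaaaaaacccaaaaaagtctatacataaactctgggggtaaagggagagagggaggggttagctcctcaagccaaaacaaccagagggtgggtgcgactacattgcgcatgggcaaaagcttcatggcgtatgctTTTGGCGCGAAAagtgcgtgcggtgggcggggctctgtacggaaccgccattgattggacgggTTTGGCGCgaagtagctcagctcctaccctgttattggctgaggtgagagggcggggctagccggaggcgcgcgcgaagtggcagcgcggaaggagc
Cdc6: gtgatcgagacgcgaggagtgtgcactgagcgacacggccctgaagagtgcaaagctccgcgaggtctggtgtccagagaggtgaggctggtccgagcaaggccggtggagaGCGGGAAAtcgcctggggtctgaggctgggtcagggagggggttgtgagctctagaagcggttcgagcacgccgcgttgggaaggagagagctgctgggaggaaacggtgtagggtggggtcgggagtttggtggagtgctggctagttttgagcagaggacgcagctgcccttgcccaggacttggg
Rrm2: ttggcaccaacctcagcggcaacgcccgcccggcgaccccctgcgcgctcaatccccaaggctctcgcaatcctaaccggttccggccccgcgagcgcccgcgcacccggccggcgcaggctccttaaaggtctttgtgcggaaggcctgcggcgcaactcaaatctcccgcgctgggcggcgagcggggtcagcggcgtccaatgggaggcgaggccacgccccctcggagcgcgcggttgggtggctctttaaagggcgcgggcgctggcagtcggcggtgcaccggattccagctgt

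Mcm5 and Mcm6 each hold a pair of overlapping matches on opposite strands, at positions -153 to -142 from the start site in Mcm5 and -110 to -99 in Mcm6, and Mcm6 holds another match at -47 to -40. Cdc6 holds 1 match, on the other strand, and Rrm2 holds 0 in this window, where it has 1 CCAAT motif on its own strand. RefSeq promoters were given for 29 of the 35 genes (34 promoters), and not for Gins1, Gins2, Gins4, Mcm4, Pole and Rfc2. An E2F-type match was found in 12 of the 34 promoters (35.3%), beside 2.26% of all 32851 promoters and 3.86% of the 12779 promoters of tested genes. Of the 58 promoters given for 47 of the 56 other replication genes, 22.4% held one. CCAAT was found in 67.6% of the 34 promoters against 37.3% of promoters of tested genes, and TATAAA in 5.88% against 7.43%. The genes with a match did not have the larger median change: the 12 genes with an E2F-type match had a median log2 fold change of 0.24 by FPKM (7 rose, 1 fell), and the 17 genes without one 0.35 (10 rose, 2 fell). After the centring on T-cell identity genes both groups of genes shift down by the same amount. A match is a stretch of letters and not a shown binding site, and a gene without one may hold a site outside the window or with other letters. Whether E2F proteins act on these genes was not tested.

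**Figure D2:**
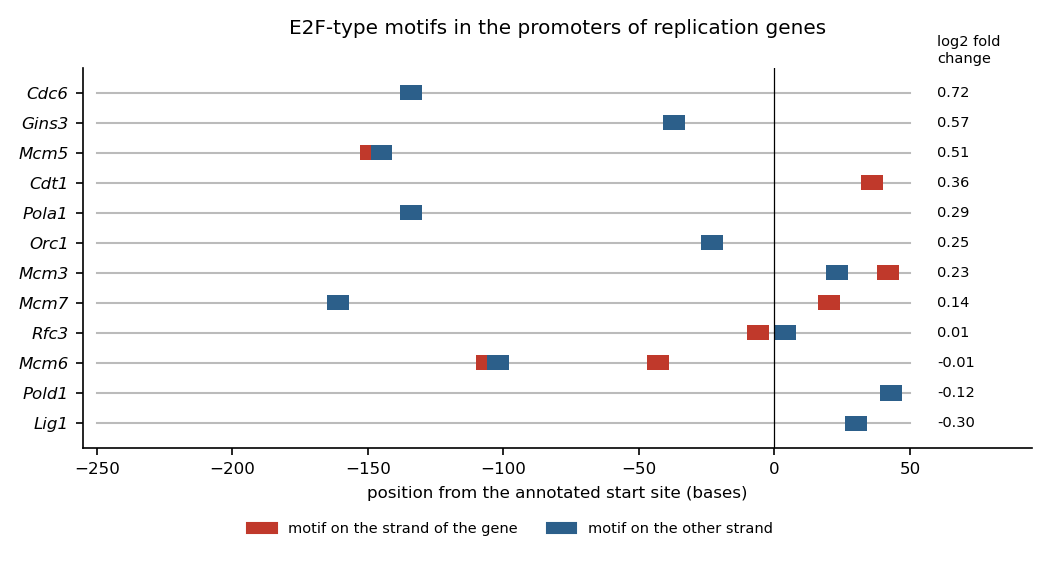
Position of each E2F-type match from the annotated start site (bases) in the 12 promoters that hold one, ordered by the log2 fold change by FPKM printed at the right (red, motif on the strand of the gene; blue, on the other strand). Genes with matches run from 0.72 (Cdc6) to -0.30 (Lig1), and Mcm6, at -0.01, holds more matches than Cdc6.

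Of the 6 genes that turn the loaded ring into a helicase, 4 rose by FPKM, 2 did not pass the test, and all 6 lay below 0 relative to the T-cell identity genes. Cdc45, which binds the side of the MCM ring, was at 5.16, 6.25 and 4.96 FPKM in the cisplatin libraries against 3.77, 3.84 and 4.05 FPKM in control. The lowest cisplatin value was still above the highest control value (log2 fold change 0.47 ± 0.10 (SE), adjusted p = 0.0059). Mcm10, which helps the helicase to start unwinding, was at 3.58, 3.71 and 3.297 against 2.49, 2.905 and 2.75 FPKM, also without overlap (0.37, adjusted p = 0.013). The 4 GINS subunits act as one complex, but their transcripts differed widely in level: Gins4 was at 18.1, 21.1 and 19.03 against 16.02, 16.6 and 17.4 FPKM, and the other three stayed between 1.92 and 4.89 FPKM. Gins3 had a large but loose change, 2.897, 4.75 and 3.85 against 2.75, 2.67 and 2.105 FPKM (log2 fold change 0.57 ± 0.19 (SE), adjusted p = 0.042). It lost its call when any single library except cisplatin replicate 1 was left out, with adjusted p from 0.06 to 0.12. Gins4 (0.21, adjusted p = 0.028) lost its call without cisplatin replicate 2 or 3 or control replicate 1 or 2, with adjusted p from 0.057 to 0.083. The intervals of Gins1 (-0.23 to 0.56) and Gins2 (-0.05 to 0.56) cover 0, and 67.3% of the exon bases of Gins2 are shared with Gse1 on the other strand.

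Among the primase and polymerase genes, 2 of 4 rose by FPKM. Prim1, the catalytic subunit of primase, and Pola1, the catalytic subunit of polymerase alpha that extends the primer, were these genes, while Pole and Pold1, the catalytic subunits of the leading- and lagging-strand polymerases, did not pass the test. Relative to the T-cell identity genes all 4 lay below 0. Prim1 was at 7.17, 7.89 and 8.02 against 5.91, 5.66 and 6.46 FPKM (0.35, adjusted p = 0.0059), and Pola1 at 3.64, 3.49 and 3.95 against 2.94, 2.99 and 3.07 FPKM (0.29, adjusted p = 0.017). Neither pair of groups overlapped, but the call of Pola1 was lost without cisplatin replicate 3 (adjusted p = 0.057) or control replicate 1 (0.051). Pole was at 4.41, 4.84 and 4.76 against 4.11, 4.06 and 4.43 FPKM (95% interval -0.02 to 0.32). Pold1 was at 15.7, 14.1 and 13.9 against 16.7, 16.7 and 14.1 FPKM (95% interval -0.32 to 0.08), and passed the test as lower without control replicate 3 (-0.20, adjusted p = 0.047). The groups overlapped in both. Within a library Pola1 was 0.255 ± 0.027 times Pold1 with cisplatin and 0.191 ± 0.024 times in control (SD, n = 3).

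The sliding clamp and its loader held changes in both directions by FPKM. Pcna (chr2:132249162-132253314, minus strand), the clamp itself, had the highest FPKM of the 35 genes in every library, at 56.96, 63.1 and 62.5 FPKM with cisplatin and 42.98, 48.5 and 46.98 FPKM in control. It rose by FPKM (log2 fold change 0.40 ± 0.06 (SE), adjusted p = 0.0013), and it lay at -0.18 relative to the T-cell identity genes. Of the 5 loader subunits, Rfc2 rose and Rfc1 fell by FPKM, and both lay below 0 with the centring. Rfc2 was at 13.6, 14.3 and 13.7 against 9.53, 10.5 and 10.1 FPKM (log2 fold change 0.46 ± 0.05 (SE), adjusted p = 0.00026), and 15.1% of its exon bases are shared with Lat2, a gene of lymphocyte signalling, on the other strand. Rfc1 (chr5:65261850-65335670, minus strand), the large subunit, was at 14.2, 14.1 and 14.5 against 16.4, 16.6 and 16.99 FPKM. Its 3 cisplatin libraries were all below the control libraries, and both groups were tight (log2 fold change -0.22 ± 0.04 (SE), adjusted p = 0.0018). The remaining subunits did not pass the test: the 95% intervals by FPKM were -0.20 to 0.21 for Rfc3, -0.41 to 0.38 for Rfc4 and -0.18 to 0.08 for Rfc5. Rfc4 had the widest interval of the loader genes, and its cisplatin replicate 3 was at 5.33 FPKM and the other cisplatin libraries at 7.68 and 8.15 FPKM. Rfc2 was 0.972 ± 0.039 times Rfc1 within the cisplatin libraries and 0.602 ± 0.026 times within the control libraries (SD, n = 3).

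Replication protein A, the trimer that coats single-stranded DNA at the fork, rose in its large and middle subunits by FPKM, and the small subunit did not pass the test. With the centring on T-cell identity genes Rpa2 lay at 0.03, Rpa1 at -0.07 and Rpa3 at -0.50, so Rpa2 and Rpa1 lay close to the mean change of the T-cell genes. Rpa1 (chr11:75298166-75348324, minus strand) was at 23.7, 25.5 and 24.5 FPKM with cisplatin and 17.3, 17.4 and 17.2 FPKM in control (log2 fold change 0.50 ± 0.04 (SE), adjusted p = 4.3e-05). The control libraries were nearly identical, and no cisplatin library came near them. Rpa2 (chr4:132768332-132778752, plus strand) showed the same picture, 11.7, 12.2 and 11 against 7.45, 7.499 and 7.77 FPKM (log2 fold change 0.61 ± 0.05 (SE), adjusted p = 8.5e-05). For Rpa3, 10.6, 11.4 and 8.47 against 9.71, 10.2 and 8.75 FPKM, the cisplatin libraries lay on both sides of the control range (95% interval -0.20 to 0.36). The ratio of Rpa2 to Rpa3 within a library was 1.07 to 1.30 with cisplatin and 0.736 to 0.889 in control, and that of Rpa1 to Rpa3 was 2.24 to 2.89 and 1.71 to 1.96.

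Of the pair of genes that finish Okazaki fragments, Lig1 fell and Fen1 did not pass the test. Lig1 (chr7:13277283-13311433, plus strand), the ligase that seals the nicks, was at 16.4, 15.1 and 16.7 FPKM in the cisplatin libraries and 20.5, 20.4 and 18.6 FPKM in the control libraries. All cisplatin values were below the control values, and the gene fell by FPKM (log2 fold change -0.30 ± 0.06 (SE), adjusted p = 0.0046) and by more, -0.88, relative to the T-cell identity genes. Fen1, the nuclease that trims the flaps, was barely detected at 0.804, 0.847 and 0.7898 against 0.523, 0.7298 and 0.7804 FPKM, and 84.2% of its exon bases are shared with Gm10143 and Tmem258 on the other strand. No source used here says whether strand or shared bases were used in counting, so the low level of Fen1 is uncertain, and its change did not pass the test (95% interval -0.30 to 0.80).

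**Figure D3:**
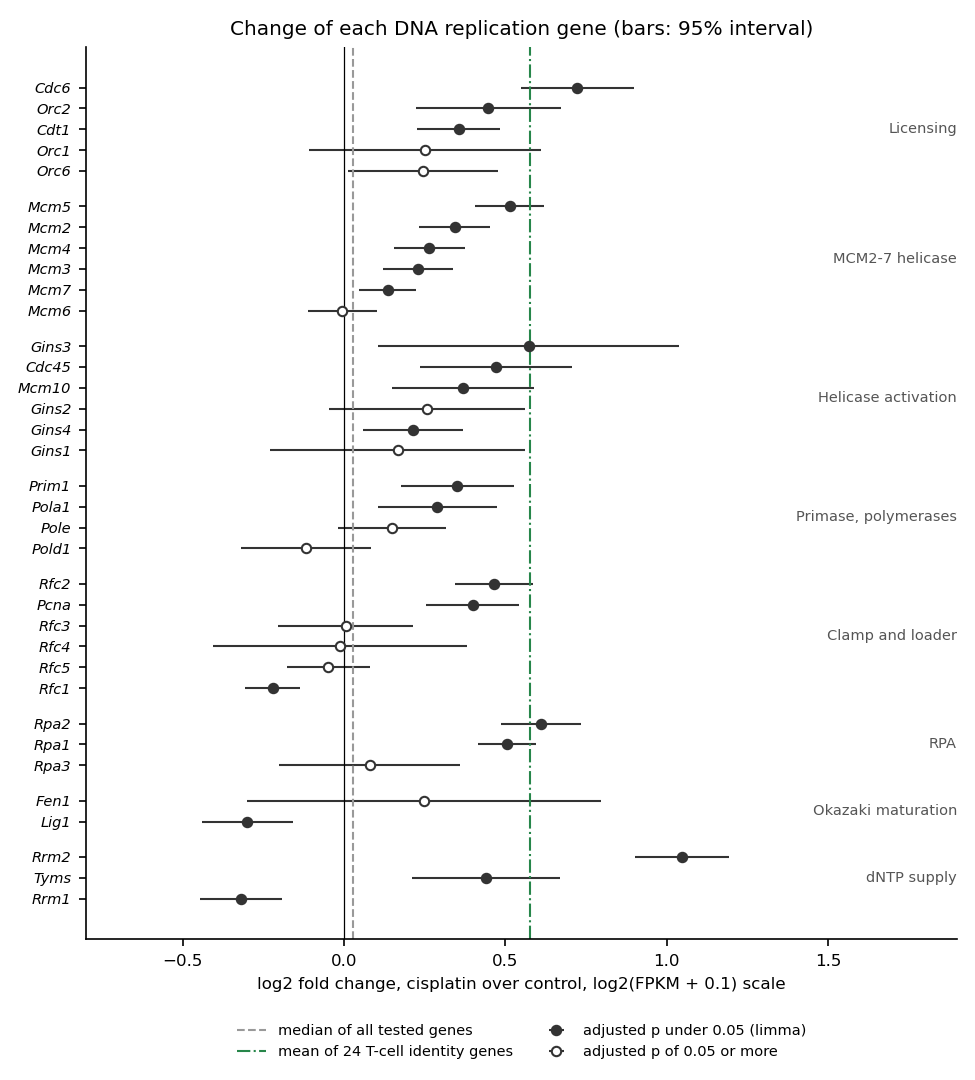
Log2 fold change of each of the 35 genes by FPKM, cisplatin over control (log2(FPKM + 0.1) scale), with its 95% interval from limma; filled points passed an adjusted p of 0.05. Most filled points lie to the right of the median of all tested genes (dashed) and to the left of the mean of the 24 T-cell identity genes (dash-dotted), where the sign turns with the centring; only Cdc6, Rpa2 and Rrm2 lie to the right of both.

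Among the genes that supply deoxynucleotides, the subunits of one enzyme moved in opposite directions by FPKM. Ribonucleotide reductase makes deoxynucleotides and is built from a large subunit, Rrm1, and a small subunit, which is Rrm2 in dividing cells or Rrm2b outside S phase and after DNA damage. Rrm2 (chr12:24708241-24714146, plus strand) was at 30.7, 29.4 and 27.8 FPKM in the cisplatin libraries and 14.9, 13.2 and 14.3 FPKM in the control libraries. Every cisplatin library was far above the control range (log2 fold change 1.05 ± 0.06 (SE), adjusted p = 1.3e-05), and Rrm2 was the only one of the 35 genes that rose both by FPKM and relative to the T-cell identity genes (0.47, adjusted p = 0.0007). The 2-fold mark was just met: without control replicate 2 the log2 fold change was 0.999, and the gene still passed the test (limma, adjusted p = 7.8e-05). Rrm1 (chr7:102441695-102469771, plus strand) moved the other way, at 11.8, 10.7 and 10.9 against 13.99, 14.3 and 13.5 FPKM. No cisplatin library reached the control range (log2 fold change -0.32 ± 0.05 (SE), adjusted p = 0.0021), and relative to the T-cell identity genes it lay at -0.90, the lowest of the 35. Rrm2b, which is not among the 35 and was picked after its values were seen, was at 2.71, 3.003 and 2.97 against 3.81, 4.09 and 3.94 FPKM (-0.44, adjusted p = 0.0027). Within a library, Rrm2 was 2.63 ± 0.107 times Rrm1 with cisplatin and 1.02 ± 0.083 times in control, and 10.2 ± 1.04 times Rrm2b against 3.59 ± 0.355 times (SD, n = 3). These ratios are left as they are by any scaling that multiplies a library by one factor, but their size depends on the gene lengths. They can also change with the mix of cells, whose part in them was not tested.

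Tyms, thymidylate synthase, which makes the thymine nucleotide, was at 3.395, 2.87 and 3.23 against 2.18, 2.37 and 2.37 FPKM and rose by FPKM (log2 fold change 0.44 ± 0.10 (SE), adjusted p = 0.0073), with -0.14 relative to the T-cell identity genes. Dut, the enzyme that removes dUTP and gives Tyms its substrate, had the largest fall by FPKM among the 56 other replication genes, 15.5, 15.1 and 14.9 against 39.1, 38.6 and 36.1 FPKM (log2 fold change -1.31 ± 0.04 (SE), adjusted p = 8.9e-07). Tyms was therefore 0.208 ± 0.016 times Dut within the cisplatin libraries and 0.0609 ± 0.0049 times within the control libraries (SD, n = 3). The largest rise of the 56 by FPKM was also in this pathway: Shmt1, which loads folate with the carbon that Tyms uses, was at 8.61, 7.398 and 7.26 against 3.98, 3.59 and 3.85 FPKM (log2 fold change 1.005 ± 0.08 (SE), adjusted p = 7.7e-05).

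**Figure D4:**
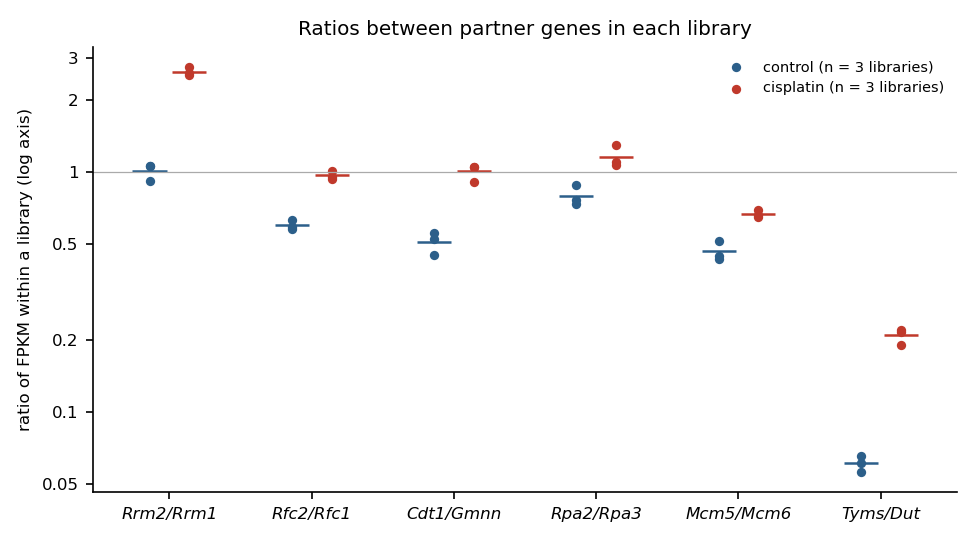
Ratio of FPKM between partner genes within each library (log axis), with a point for each library and a line at the mean of the 3 control (blue) or 3 cisplatin (red) libraries. The groups do not overlap for any of the 6 pairs, which were chosen after their values were seen, and Rrm2/Rrm1 runs from 0.920 to 1.07 in control and from 2.55 to 2.75 with cisplatin.

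The 56 other replication genes, taken from lists of origin, polymerase, fork, chromatin assembly and deoxynucleotide genes, are given beside the 35. By FPKM 25 rose, 6 fell and 25 did not pass the test, with a median of 0.21, beside 27.5% of all tested genes that rose and 29.0% that fell. After the centring on T-cell identity genes 5 of 56 lay above 0, beside 2290 of all 15874 tested genes. The counts of the short lists that follow stand beside the same shares and are not read as a result about a list. Of 14 origin and helicase genes, 6 rose and 2 fell. Donson, which helps to assemble the helicase, was at 12.2, 12.9 and 14.1 against 7.27, 8.49 and 7.78 FPKM (0.73, adjusted p = 0.00027). Gmnn, geminin, the protein that binds and blocks Cdt1, was at 14.6, 14.3 and 15.1 against 21.4, 21.6 and 25.02 FPKM (log2 fold change -0.62 ± 0.07 (SE), adjusted p = 0.00028) and was below the control range in every cisplatin library. Cdt1 relative to Gmnn was 1.01 ± 0.082 with cisplatin and 0.512 ± 0.054 in control (SD, n = 3), and Cdc6 relative to Gmnn was 0.275 to 0.277 against 0.0949 to 0.117. Of 8 polymerase subunits, 3 rose and 1 fell. By FPKM the largest rise was that of Pola2, the accessory subunit beside Pola1 (0.51, adjusted p = 9.1e-05), which lay at -0.06 with the centring, and the largest fall that of Pold4, the small subunit of polymerase delta (-0.35, adjusted p = 0.0023), which lay at -0.92. Among 15 fork factors, 7 rose and 1 fell, led by FPKM by Clspn, the checkpoint adaptor claspin (0.68, adjusted p = 0.00088), and Rnaseh2a, which removes ribonucleotides from DNA (-0.47, adjusted p = 0.00011). Of 10 genes of chromatin assembly, 5 rose, and the largest rise by FPKM was that of the histone chaperone Asf1b (0.77, adjusted p = 8.3e-05). In the deoxynucleotide list of 9, 4 rose and 2 fell.

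Regulators of S phase and markers of mitosis were followed as lists, and the genes named from them were chosen after their values were seen. Their counts stand beside 27.5% of all tested genes that rose by FPKM, 29.0% that fell, and 2290 of 15874 that lay above 0 with the centring. Of 18 E2F family members and S-phase regulators, 11 rose and 2 fell by FPKM (median 0.26), and after the centring 2 of the 18 lay above 0. Ccne1, the cyclin that drives the entry into S phase, was at 7.93, 8.17 and 8.47 against 4.82, 4.08 and 4.897 FPKM (0.82, adjusted p = 0.00017). The repressor E2f8 rose by FPKM (0.75, adjusted p = 0.00055), while the activator E2f1 was at 5.62, 7.099 and 6.27 against 9.12, 8.23 and 7.63 FPKM and fell (-0.39, adjusted p = 0.016), as did Tfdp2, a partner of E2F proteins (-0.48, adjusted p = 0.00053). These were the 2 that fell, and their relatives E2f2 (0.45, limma adjusted p = 0.00066) and Tfdp1 (0.37, limma adjusted p = 0.0011) rose by FPKM. The E2F genes and their partners thus did not move in a single direction. Of 12 mitosis markers 6 rose and 1 fell by FPKM (median 0.16), and 1 of 12 lay above 0 with the centring. The proliferation marker Mki67 was at 33.9, 35.4 and 36.3 against 23.5, 23.1 and 21.96 FPKM (0.62, adjusted p = 2.5e-05), and the mitotic kinase Aurka at 9.64, 9.55 and 9.65 against 10.7, 10.9 and 12.1 FPKM (-0.22, adjusted p = 0.017).

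**Figure D5:**
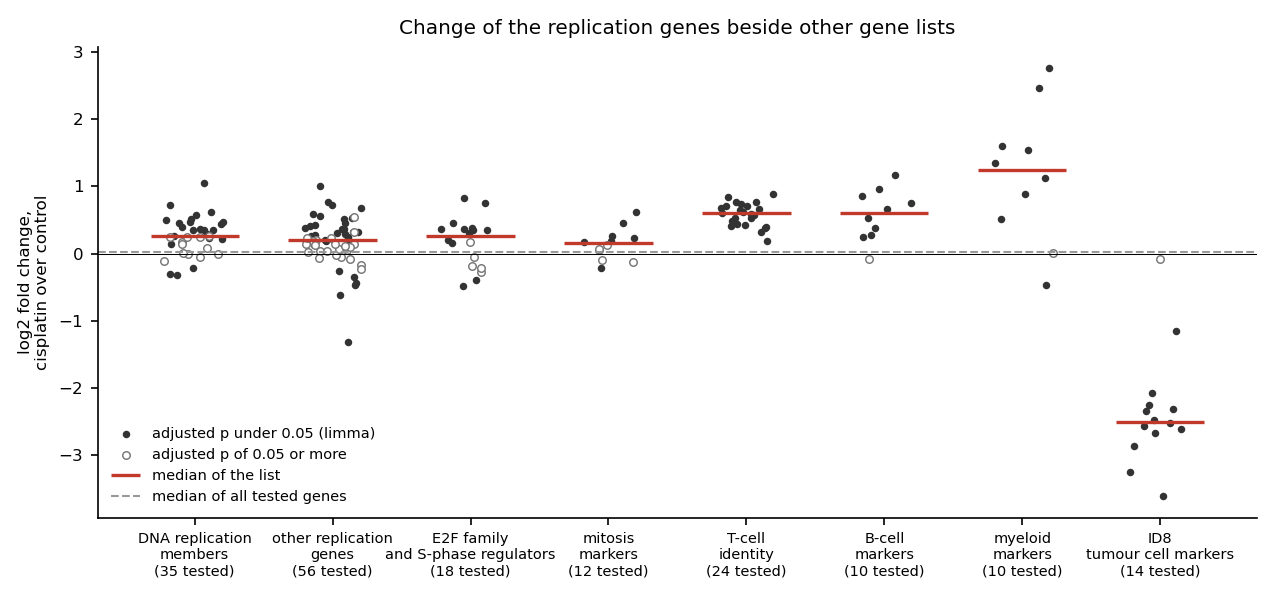
Log2 fold change by FPKM, cisplatin over control, of every tested gene of 8 lists (points; filled, adjusted p under 0.05 in limma) with the median of each list (red) and of all tested genes (dashed). The medians of the replication genes (0.26 and 0.21) lie between that of all tested genes (0.03) and that of the T-cell identity genes (0.60), so that their sign turns when libraries are centred on the latter, and the ID8 markers lie at -2.50.

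Several members carry a limit from the annotation. The coordinates of all 35 genes in the table are those of GENCODE M21 on GRCm38, and there 13 of the 35 share exon bases with another gene, 8 of them more than 10%: Fen1, Gins2, Orc2, Rfc2, Rfc4, Mcm7, Orc1 and Rfc5. For these 8 the value may hold reads of the neighbour, or may be too low if reads on shared bases were left out. The sources used here do not say which. Of the 23 genes that rose or fell by FPKM, 3 are among these 8 (Orc2, Rfc2 and Mcm7), so 20 called genes share at most 10% of their exon bases.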

How the data were processed

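Messenger RNA of 6 libraries was sequenced, and the authors deposited FPKM for 54532 genes. Per the paper's methods the authors aligned with LifeScope, whereas the submitters' processing notes name fastp, HISAT2 2.0.5, featureCounts 1.5.0-p3 and mm10. How strand and shared bases were counted is not given in the sources used here. Whole reads were rebuilt from FPKM and gene length (100% within 0.1 of a whole read) for depth. The FPKM denominator exceeded these reads by a factor of 1.03 to 1.05 in the cisplatin group and was 0.976 to 0.982 of them in control. This difference lowers all fold changes by FPKM relative to those scaled by the rebuilt reads. For example, the log2 fold change of Rfc1 was -0.22 by FPKM and -0.14 with voom on these reads.

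Tests used limma 3.58.1 (R 4.3.3; lmFit, eBayes with trend) on log2(FPKM + 0.1), which understates changes of low genes, for genes averaging 0.5 FPKM or more, with Benjamini-Hochberg adjustment over all 15874. All 35 genes may be named; other replication genes were named if changed at least 2-fold or the strongest riser or faller of their list by FPKM (Rrm2b was added after its values were seen), and cell type genes are given by list. The members and lists were chosen with earlier results of these data known. In centring, the mean log2 value of 24 T-cell identity genes was subtracted from each library. Alternatives were other pseudocounts, filters, scalings and thresholds, voom on rebuilt reads, treat, protein-coding genes, a block, and leaving out each library. Steps were tested on simulated data with 200 changed genes, far fewer than were called here. The simulated spread between libraries was set by hand, not taken from these libraries, and the simulated reads were scaled by their own sums. The recoveries therefore hold for that setting only. In the simulation 53 of 67 genes with a log2 change of 0.5 were recovered, and 66 of 67 with a change of 1. Smaller changes, like those of most of the 35 genes, were not simulated. The table held 0 other sample columns.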

Additional observations from a re-analysis of the deposited data

How the results depend on the processing

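The choice of reference decided the direction. With each library centred on its T-cell identity genes, 1 gene was higher and 21 were lower, 0 were higher by at least 2-fold, and the median was -0.32. These 25 genes had a positive log2 fold change by FPKM and a negative one after the centring: Gins3 -0.0048, Mcm5 -0.064, Rpa1 -0.072, Cdc45 -0.10, Rfc2 -0.11, Orc2 -0.13, Tyms -0.14, Pcna -0.18, Mcm10 -0.21, Cdt1 -0.22, Prim1 -0.23, Mcm2 -0.23, Pola1 -0.29, Mcm4 -0.31, Gins2 -0.32, Orc1 -0.33, Fen1 -0.33, Orc6 -0.33, Mcm3 -0.35, Gins4 -0.36, Gins1 -0.41, Pole -0.43, Mcm7 -0.44, Rpa3 -0.50 and Rfc3 -0.57. The centring subtracts one value from every gene of a library and so leaves the differences between genes within it as they were. The other scalings shifted the median of all tested genes to 0.16 (quantile normalization) and 0.10 (voom on rebuilt reads), with 24 and 23 of the 35 genes higher, 3 lower in both, and medians of 0.43 and 0.35. Genes near 0 changed sign: with quantile normalization Mcm6 0.056, Rfc4 0.13 and Rfc5 0.11, with voom 0.077, 0.072 and 0.034, and Rfc3 at -0.0041 with the median of ratios and -0.015 with TPM. Leaving out each library in turn, log2 fold changes ran over -0.037 to 0.025 for Mcm6, -0.058 to 0.071 for Rfc3, -0.13 to 0.17 for Rfc4 and -0.007 to 0.203 for Rpa3, and the count higher by at least 2-fold ran from 0 to 1, the 0 being without control replicate 2. Of 23 called genes, 19 kept call and sign in each of 17 alternatives other than the centring and treat in which they were tested, and Gins3, Gins4, Mcm7 and Pola1 lost the call in at least 1. Against a fold change of 1.5, treat called 1 gene higher and 0 lower. With the replicate block 20 were higher and 3 lower, Gins3 lost its call (adjusted p = 0.055) and Orc6 gained one (0.046). Libraries with the same number did not deviate together over all tested genes (correlations 0.023, -0.063 and -0.021). These values cannot settle whether such libraries share more than a number, because the spread of single genes can hide it. Depth limited Fen1, which had 38 to 68 reads per library, the fewest of the 35.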
